A study of Mus musculus with 6 samples.

Results

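The T cell receptor alpha and delta segments are the variable (V), diversity (D), joining (J) and constant (C) gene segments of mouse chromosome 14 from which T cells assemble the alpha chain or the delta chain of their antigen receptor. Members were the table rows annotated as T cell receptor segments on chromosome 14, pseudogenes included, with a sum of at least 10 counts over the 6 libraries. This left 150 of the 202 segments listed there, among 55840 genes in the table. They comprised 88 of 128 alpha V segments (Trav), 54 of 60 alpha J segments (Traj), the alpha constant segment Trac, the delta constant segment Trdc, 4 of 6 delta V segments, 1 of 2 delta J segments and 1 of 2 V segments that carry no Trav symbol (B230359F08Rik). Neither of the 2 delta D segments had a count, and 12 of the 150 members are annotated as pseudogenes. The members were thus chosen by their counts summed over both genotypes, so that a segment's presence among them is no finding.

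RNA was sequenced from Tregs, the Foxp3-dependent CD4 T cells that restrain immune responses, taken from mouse spleen and lymph nodes. The 2 groups were wild-type Tregs (WT, 3 libraries) and Tregs labelled Exon2KO (3 libraries), in which the series title marks Foxp3 as lacking exon 2; no treatment or time point is given. Strain, age and sex of the mice, the number of animals behind a library, and how the Tregs were isolated are not given in the sources used here. Libraries are called by genotype and the number in their column name (2, 6 or 20).

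A developing T cell in the thymus cuts and joins 1 V segment to 1 J segment on chromosome 14, and the joined piece is spliced to Trac to give the alpha chain messenger RNA. The J segments lie in a row just upstream of Trac and the V segments lie further upstream, so an allele can replace a first joint with a later one that uses a V further upstream and a J further downstream. Most delta segments lie between the alpha V and J segments, some delta V segments among the last alpha V segments, and joining an alpha V to an alpha J cuts out the delta D, J and constant segments. Counts were made per segment of the unrearranged genome. Reads of a J segment joined to a V, and reads of a J segment carried in unspliced RNA downstream of a joint, therefore cannot be told apart in these values, and "usage" below means a share of counts.

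Read depth was similar across the libraries, with totals of 17998216 to 21003496 counts, so that 3 counts, taken as the smallest level shown, corresponded to 0.141 to 0.169 CPM (counts per 1000000 counts of a library, scaled by the TMM method). This floor covers counting error only. Foxp3 itself averaged 711 ± 96.4 CPM (WT) and 810 ± 121 CPM (Exon2KO; SD, n = 3), and since counts are per gene, the loss of exon 2 could not be checked. Of the 5 Treg markers, all were detected, with summed levels of 2597 to 3084 CPM in WT and 2340 to 2755 CPM in Exon2KO, and 3 of them (Il2ra, Ctla4 and Ikzf2) were called lower in Exon2KO by edgeR, where 1.58% of all tested genes were called lower.

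The alpha chain constant segment dominated the counts of the locus and did not differ detectably between the genotypes. Trac took 70.5% of all member counts, the 88 alpha V segments together 19.3%, the 54 alpha J segments 9.33% and Trdc 0.662%. All members together amounted to 688 ± 40.3 CPM in WT and 734 ± 27.8 CPM in Exon2KO (SD, n = 3). No single member passed the test for a difference between the genotypes. Of the usage measures, 2 had no overlap between the genotypes. A planned measure, the number of V segments over which counts were spread, was lower in each Exon2KO library than in each WT library. So was the share of V counts in the part (1 of 6) of the V region nearest Trac, which was no planned test. Each had the smallest p that 3 against 3 libraries allow. Adjusted over 12 comparisons each, these exact permutation p-values became 0.667 and 0.6. The wider planned part (1 of 3) of the V region nearest Trac, which contains that part, differed by -0.43 points (exact permutation p = 0.9). That difference turned sign in 4 of 11 alternatives.

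Trac (ENSMUSG00000076928) encodes the part of the alpha chain that every alpha-beta T cell uses, whichever V and J it joined, and it lies at chr14:54220521-54224206 on the plus strand (GRCm38). Its level was 439, 538 and 490 CPM in WT 2, WT 6 and WT 20, and 498, 542 and 499 CPM in Exon2KO 2, 6 and 20. WT 2 was the lowest library, and the other 5 overlapped. Within each of the 3 pairs of the same library number Exon2KO was the higher one (exact sign-flip p = 0.25, the smallest that 3 pairs allow). WT averaged 489 ± 49.6 CPM, Exon2KO 513 ± 25.2 CPM (SD, n = 3). The log2 fold change was 0.07 (SE 0.09, 95% interval -0.13 to 0.27, edgeR quasi-likelihood adjusted p = 0.870). That sign turned to -0.02 when libraries were scaled by their receptor segment counts and to -0.0054 without WT 2. In the authors' deposited table the log2 fold change of Trac was 0.07 with an adjusted p of 0.999.

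**Figure D1:**
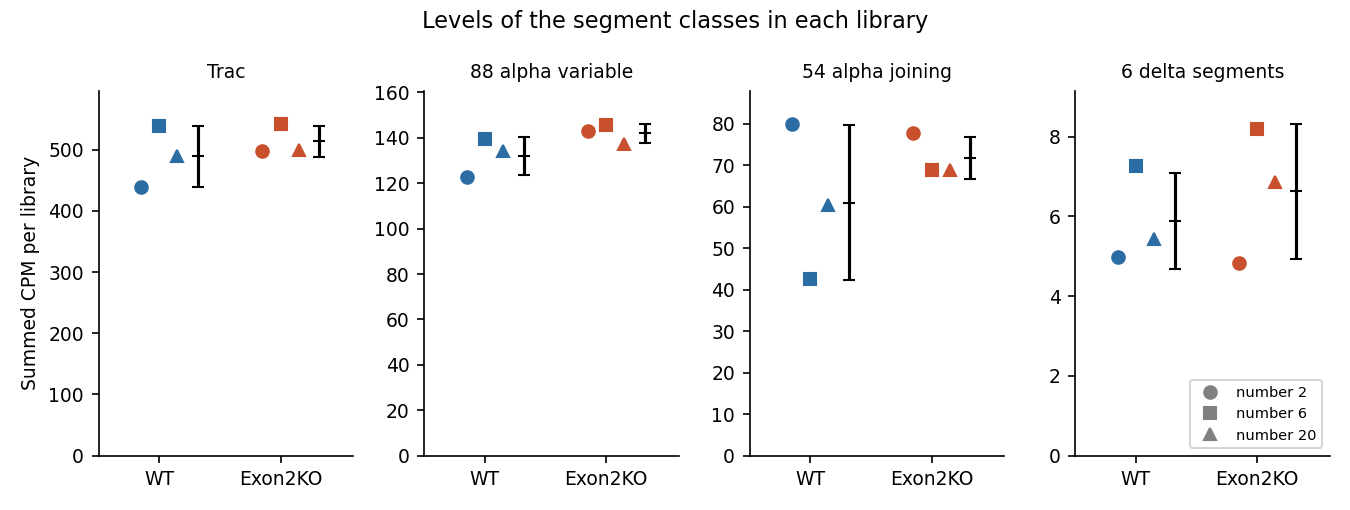
Level of Trac and the summed levels of the alpha V, alpha J and delta members in CPM (vertical axes start at 0), with 1 point per library, shape for the library number, and the mean and SD of 3 libraries beside the points. The genotypes overlap in all 4 panels, and in the J panel both the lowest point, WT 6 at 42.6 CPM, and the highest, WT 2 at 80.1 CPM, are WT.

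Summed over the 88 alpha V members, which encode most of the antigen-binding face of the alpha chain, the level was 123, 139 and 134 CPM in WT 2, 6 and 20, and 143, 146 and 137 CPM in Exon2KO 2, 6 and 20. WT 2 was lowest, and Exon2KO 20 lay below WT 6, so the groups overlapped. Exon2KO was again higher in 3 of 3 pairs of the same number (exact sign-flip p = 0.25). Means were 132 ± 8.47 and 142 ± 4.30 CPM (SD, n = 3; two-sided exact permutation p = 0.2, adjusted 0.667 over 12 such comparisons of summed levels and usage, where 3 against 3 cannot go below 0.1). The log2 difference of the V sum was 0.11, and it was 0.010 as a share of receptor segment counts and 0.053 without WT 2. Per 100 Trac counts there were 27.1 ± 1.07 V counts in WT and 27.7 ± 0.953 in Exon2KO (SD, n = 3; exact permutation p = 0.5), also higher in 3 of 3 pairs.

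In WT the J sum was less even than the V sum. It was 80.1, 42.6 and 60.4 CPM in WT 2, 6 and 20, and 77.7, 68.8 and 68.9 CPM in Exon2KO 2, 6 and 20. The highest and the lowest library were thus both WT, and the 3 Exon2KO libraries lay between them. The means of 61.0 ± 18.7 and 71.8 ± 5.11 CPM (SD, n = 3) did not differ beyond that spread (two-sided exact permutation p = 0.5, adjusted 0.667). The difference of the J sum was 0.28 on the log2 scale, 0.045 without WT 6 and 0.50 without WT 2. Against Trac, the J class had 18.2 (WT 2), 7.91 (WT 6) and 12.3 (WT 20) counts per 100 Trac counts, and 15.6 (Exon2KO 2), 12.7 (Exon2KO 6) and 13.8 (Exon2KO 20). WT 2 stood 2.31-fold above WT 6 on this ratio, and the genotype means were 12.8 ± 5.18 and 14.03 ± 1.47 (SD, n = 3; exact permutation p = 0.7). Without WT 6 the difference of the means turned from 1.205 to -1.25 J counts per 100 Trac counts. WT 6 was alone the lowest library for 27 of the 54 J members, against 18 of the 88 V members, while its V sum was the highest of the WT libraries.

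The alpha V members were spread over a region of 1550 kb, and their counts were concentrated toward its downstream end. In 6 equal parts of the region, read from the upstream end toward Trac, WT libraries had 6.54%, 6.61%, 8.88%, 13.7%, 53.96% and 10.3% of their V counts, and Exon2KO libraries 6.33%, 7.18%, 10.8%, 11.8%, 55.0% and 8.86%. The fifth part, from Trav7-4 to Trav7-6, held 24 members and most of the V counts in both genotypes. Spearman's rho between distance upstream of Trac and mean CPM was -0.34 across the 88 segments, and -0.27 to -0.35 within single libraries. This is a description across segments that share libraries and differ in how far their sequence is unique.

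Of the 6 parts, the one nearest Trac, from Trav13-3 to Trav21-dv12, was the only one whose genotypes did not overlap. Of V counts it held 10.3% in WT 2, 9.98% in WT 6 and 10.7% in WT 20, against 9.62% in Exon2KO 2, 8.24% in Exon2KO 6 and 8.73% in Exon2KO 20. Each Exon2KO library was below each WT library, with means of 10.3 ± 0.338% in WT and 8.86 ± 0.701% in Exon2KO (SD, n = 3). The two-sided exact permutation p was 0.1, the smallest this design can give, and 0.6 after adjustment over the 12 V and J parts compared. The comparison of this part was no planned test. Within this part 7 members were tested singly, none was called, and 3 of the 7 had a positive log2 fold change. The largest differences in mean share among its members were -0.68 points for Trav16 and -0.55 points for Trav21-dv12, named after their values were seen. Some members went the other way, the largest being Trav13-4-dv7 with 0.14 points.

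**Figure D2:**
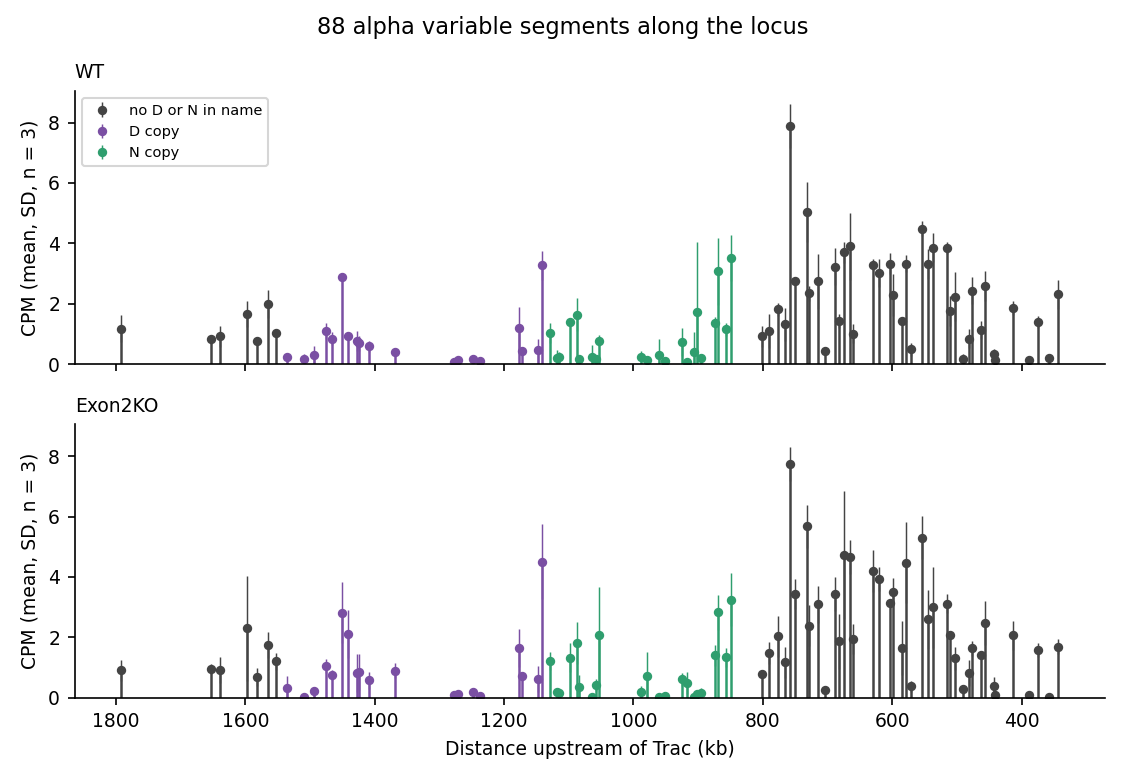
Mean CPM of the 88 alpha V members (bars: SD, n = 3) in WT (upper panel) and Exon2KO (lower panel) against distance upstream of Trac in kb, coloured by whether the name marks a D or N copy. Trav7-4 is the highest point in both panels, and segments in the downstream part whose name marks no D or N copy carry most of the signal.

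The 5 V segments with the highest mean CPM were Trav7-4, Trav9-1, Trav3-3, Trav14-1 and Trav13-1, which lay 554 to 759 kb upstream of Trac and together took 19.4% of V counts. An even share would be 1.14% per segment, the median share was 0.864%, and the 10 most counted segments took 32.9%. Trav7-4 (ENSMUSG00000094766, chr14:53461099-53461738) had 7.29, 8.69 and 7.64 CPM in WT 2, 6 and 20, and 7.88, 7.12 and 8.20 CPM in Exon2KO 2, 6 and 20. It was the most counted V segment, and its genotypes overlapped (log2 fold change -0.03, SE 0.17, edgeR adjusted p = 0.982). Trav9-1 had 5.63, 3.91 and 5.62 CPM in WT 2, 6 and 20, and 6.49, 5.38 and 5.17 CPM in Exon2KO 2, 6 and 20. WT 6 was low and the rest overlapped (log2 fold change 0.17, SE 0.23, edgeR adjusted p = 0.879), and the fold change was 0.016 without WT 6. These were the only alpha V or J segments with a mean over all 6 libraries of at least 5 CPM. Trav3-3 had means of 4.49 ± 0.251 and 5.30 ± 0.703 CPM and Trav14-1 of 3.90 ± 1.104 and 4.66 ± 0.548 CPM in WT and Exon2KO (SD, n = 3), overlapping in both cases. Trav13-1 ranged from 3.32 to 3.98 CPM in WT and from 2.98 to 7.10 CPM in Exon2KO, where Exon2KO 2 held the high value.

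Many mouse V segments exist in near-identical copies, because a stretch of the V region was duplicated in evolution. A d or an n directly after the family number, as in Trav7d-4 and Trav7n-4, marks such copies, while a dv in a name does not. To show how close they are, the last 60 bases of 3 Trav7-4 relatives are printed from the GENCODE release 21 transcripts (GRCm38, chromosome 14, plus strand, 5′ to 3′), which hold the end of the V segment at the joint, with a capital where a base differs from Trav7-4.
Trav7-4 (chr14:53461679-53461738): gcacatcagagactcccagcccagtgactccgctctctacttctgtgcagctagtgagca
Trav7d-4 (chr14:52770333-52770392): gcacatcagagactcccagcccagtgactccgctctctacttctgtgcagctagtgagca
Trav7n-4 (chr14:53091816-53091875): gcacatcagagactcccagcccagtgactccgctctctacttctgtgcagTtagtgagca
Over their aligned transcripts Trav7d-4 was 99.6% and Trav7n-4 97.9% identical to Trav7-4. Their counts over all libraries were 325 and 127, against 884 for Trav7-4, so how reads were divided among the 3 cannot be told from the table.

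Segments whose name marks no d or n copy made up 47 of their 55 listed genes among the members, with a median of 172 counts over all libraries. The d copies had 19 members of 39 listed and a median of 6 counts, and 12 of them were at 0. The n copies had 22 members of 34 and a median of 22.5 counts, with 8 at 0. Copies also differed in how much of their sequence occurs in no other gene. Of all 50-base stretches in a transcript, the median share found in that gene alone was 64.6% for segments without d or n, and 0% for d and for n copies. It was 51.2% for the 88 members and 0% for the 40 listed V segments below the minimum, of which 29 had no unique stretch. How the authors counted reads with several best positions is not given in the sources used here, and its part in these counts was not tested.

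The J members followed a steep order along the locus, with the levels highest next to Trac. In 6 equal parts of the J region (63.8 kb), read toward Trac, the median level per length was 1.54, 4.23, 8.53, 19.7, 29.4 and 45.6 CPM per kb, a 29.6-fold span from the first part to the last. WT libraries had 0.864%, 4.42%, 8.33%, 18.1%, 27.3% and 41.1% of their J counts in these parts, and Exon2KO libraries 0.609%, 3.61%, 6.75%, 18.3%, 29.7% and 41.0%. No part showed a difference between genotypes beyond the spread of the libraries (two-sided exact permutation p from 0.2 to 1.0). That test ignores the library number. Within each pair of the same number, Exon2KO was lower in the parts from Traj59 to Traj52 and from Traj40 to Traj32. In the latter, shares in WT and Exon2KO were 8.64% and 6.28% (number 2), 6.72% and 5.65% (6), and 9.62% and 8.31% (20). The part from Traj21 to Traj11 was higher in Exon2KO in each pair, and the other parts were mixed. Sign flips of 3 pairs cannot give a p below 0.25. Spearman's rho between distance and mean CPM was -0.98 across the 54 segments and lay between -0.90 and -0.95 in each of the 6 libraries, as a description across segments of shared libraries.

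**Figure D3:**
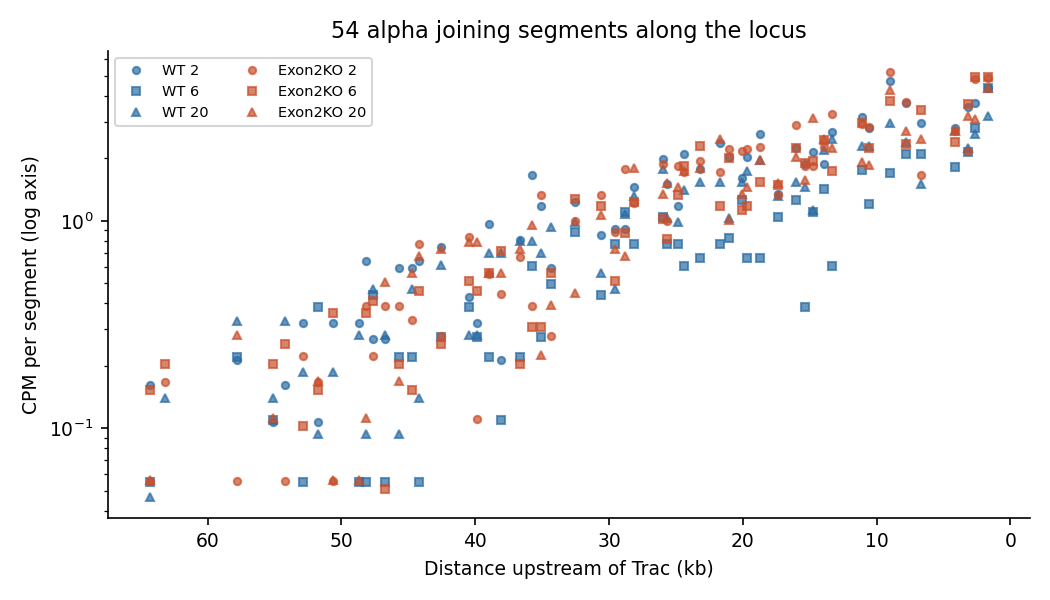
CPM of each of the 54 alpha J members in each library (log axis) against distance upstream of Trac in kb, blue for WT and red for Exon2KO, with the shape giving the library number; 12 values of 0 are not drawn. Levels climb toward Trac in all 6 libraries, and WT 6 (squares) was alone the lowest library for 27 of the 54 segments when values of 0 are included.

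As examples, 6 J segments were chosen. The first is a far member just inside the minimum, and the last 3 are among the most counted. Between them are the J segments of the invariant receptors of mucosal-associated invariant T (MAIT) cells and natural killer T (NKT) cells. Sequences of the 6 are printed in order from far to near Trac. They are GENCODE release 21 transcripts (GRCm38, plus strand, 5′ to 3′), and capitals mark the first match of the codons of the FGXG motif (phenylalanine, glycine, any residue, glycine), a stretch shared by most J segments, in the reading frame in which the last base of a J segment starts the codon that Trac completes.
Traj58 (chr14:54157280-54157342): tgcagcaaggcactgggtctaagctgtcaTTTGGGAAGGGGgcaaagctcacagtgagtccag
Traj33 (chr14:54185358-54185414): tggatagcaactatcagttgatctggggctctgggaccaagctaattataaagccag
Traj18 (chr14:54200777-54200842): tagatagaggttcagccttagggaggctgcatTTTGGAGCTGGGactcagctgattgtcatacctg
Traj7 (chr14:54211470-54211528): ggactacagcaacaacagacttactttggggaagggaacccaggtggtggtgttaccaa
Traj2 (chr14:54217836-54217901): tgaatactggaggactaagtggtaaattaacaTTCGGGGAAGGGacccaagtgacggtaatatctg
Traj1 (chr14:54218814-54218842): gtgtgcagatagctgctccatctttcctg
The motif occurred in that frame on the printed strand of 41 of the 60 listed J segments (68.3%), in 40 of 51 annotated as genes and 1 of 9 annotated as pseudogenes. In any frame it occurred in 43, and on the other strand of none. For comparison, 0% of 714 windows of the median J length (61 bases) taken from V transcripts held it in the same frame. Of the members 38 of 54 had a match, and Traj33, Traj7 and Traj1 among the printed ones had none.

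The 5 J segments with the highest mean CPM, Traj1, Traj7, Traj2, Traj6 and Traj3, all lay within 9.0 kb of Trac and took 26.5% of J counts with an even share of 1.85%. Traj1, the nearest to Trac, is annotated as a pseudogene and is 29 bases long. It had 4.34, 4.34 and 3.19 CPM in WT 2, 6 and 20, and 4.88, 4.92 and 4.38 CPM in Exon2KO 2, 6 and 20. All 3 Exon2KO values were above all 3 WT values, yet the log2 fold change of 0.26 (SE 0.23) was within the error of the fit (edgeR adjusted p = 0.778), and it ran from 0.12 to 0.33 over fits that left out 1 library. Traj7 had 4.72, 1.71 and 2.95 CPM in WT 2, 6 and 20, and 5.22, 3.79 and 4.27 CPM in Exon2KO 2, 6 and 20. WT 6 was less than each of the others, and the groups overlapped (log2 fold change 0.50, SE 0.35, edgeR adjusted p = 0.691). That fold change was 0.21 without WT 6 and 0.91 without WT 2. Traj2 had means of 3.04 ± 0.576 and 4.28 ± 1.03 CPM, Traj6 of 2.73 ± 0.856 and 2.92 ± 0.709 CPM, and Traj3 of 2.64 ± 0.776 and 3.00 ± 0.757 CPM in WT and Exon2KO (SD, n = 3). The genotypes overlapped in each of these 3.

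Usage of the segments was compared between genotypes through shares, each segment's counts as a percentage of its class in a library, so that differences in the J or V sum drop out. Mean shares in WT and Exon2KO had a Pearson correlation of 0.949 across the 88 V members and of 0.968 across the 54 J members, as descriptions across segments. The largest differences in mean share were -1.15 percentage points for Trav6n-7, which rested on WT 6, and 0.85 for Trav14n-1, which rested on Exon2KO 6. Among J segments they were -0.83 points for Traj34 and 1.21 points for Traj7. Of J counts Traj34 held 2.08% in WT 2, 1.42% in WT 6 and 1.32% in WT 20, against 0.4996% in Exon2KO 2, 0.446% in Exon2KO 6 and 1.39% in Exon2KO 20, so that Exon2KO 20 lay within the WT range.

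**Figure D4:**
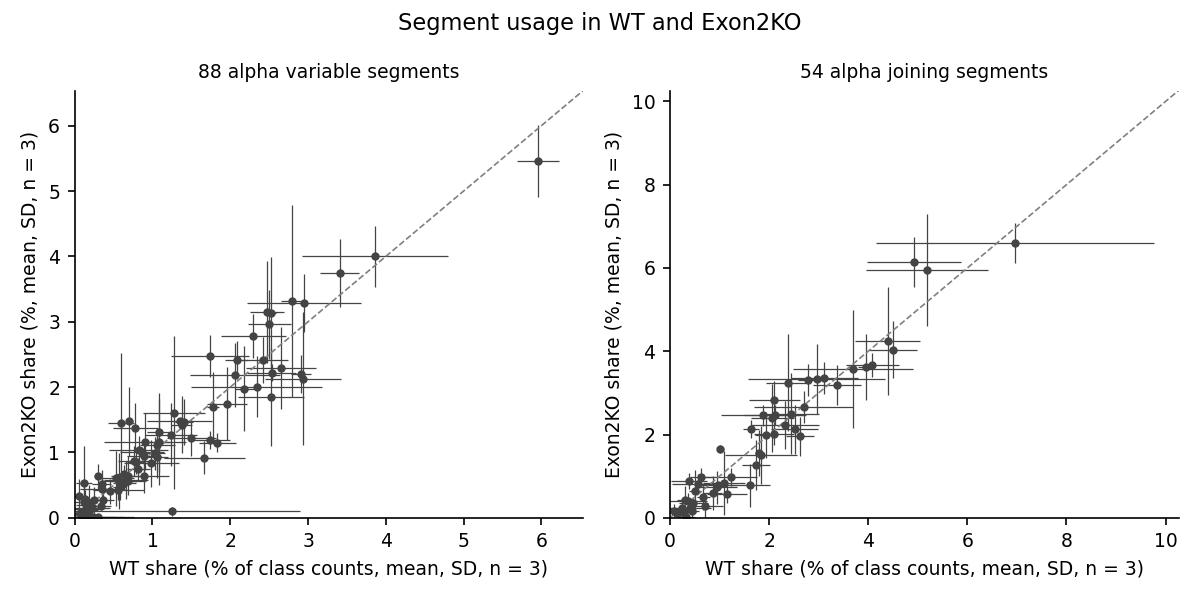
Mean share of class counts in Exon2KO (vertical, %) against WT (horizontal, %) for the 88 alpha V members (left) and the 54 alpha J members (right), with SD bars of 3 libraries and a dashed line of equal shares. Points follow the line in both panels, and the isolated low point at left with a wide horizontal bar is Trav6n-7, at 1.25% in WT and 0.0989% in Exon2KO.

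Distances between whole profiles were about as large within genotypes as between them. The distance between 2 libraries, the percentage of counts that would have to move to another segment, averaged 15.9 points within and 16.4 points between genotypes for V segments (one-sided exact permutation p = 0.3 over samples), and 15.8 and 15.5 points for J segments (p = 0.5, exact permutation). V usage was spread over an effective number of segments, the count of equally used segments with the same Shannon entropy, of 57.4 in WT 2, 55.4 in WT 6 and 56.8 in WT 20. It was 55.2 in Exon2KO 2, 55.2 in Exon2KO 6 and 54.3 in Exon2KO 20. Each Exon2KO library was below each WT library, with means of 56.5 ± 1.03 and 54.9 ± 0.535 (SD, n = 3). The exact permutation p of 0.1 is the smallest possible here and became 0.667 over the 12 comparisons. For J segments the effective numbers were 37.7 ± 3.01 and 35.9 ± 0.660 (SD, n = 3; exact permutation p = 0.4), with a difference of -1.79 that was -0.72 without WT 20 and -3.51 without WT 6.

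Position along the locus was averaged over counts. The mean V count lay 806 ± 6.15 kb upstream of Trac in WT and 818 ± 24.2 kb in Exon2KO, a difference of 12.2 kb that was 1.61 kb without Exon2KO 6, 25.4 kb without Exon2KO 20 and 4.93 kb without d and n copies. The mean J count lay 17.7 ± 1.17 and 16.99 ± 0.527 kb upstream (SD, n = 3; two-sided exact permutation p = 0.5 for each), and the J difference of -0.73 kb was -0.28 kb without WT 20 and -1.39 kb without WT 6. The third of the V region nearest Trac held 64.3 ± 2.21% of V counts in WT and 63.8 ± 3.19% in Exon2KO (p = 0.9, exact permutation, SD, n = 3). The third of the J region nearest Trac held 68.3 ± 1.97% and 70.7 ± 1.22% of J counts (p = 0.2, exact permutation, SD, n = 3), higher in Exon2KO in 3 of 3 pairs of the same number (exact sign-flip p = 0.25). The difference of 2.34 points was 1.42 without WT 20 and 3.38 without WT 6. It was 2.80 without pseudogenes and 2.63 without the most counted segment (exact permutation p = 0.1 for each, the smallest possible).

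To ask whether single segments differed, the fit over all 14919 tested genes was read for the 101 members that passed its filter on low counts: 60 V, 38 J, Trac, Trdc and Trdv1. None of the 101 was called at an adjusted p under 0.05 by edgeR, where 2.33% of all tested genes were called, and 5 had an unadjusted p under 0.05, where 12.1% of all genes did. DESeq2 called none of 106 members (3 unadjusted), where it called 4.18% of all genes, and limma-voom none of 101 (5 unadjusted), where it called 2.2%. The smallest adjusted p of a member was 0.208 with edgeR. In the authors' deposited table all 150 members had a comparison, and the smallest adjusted p was 0.239. The spread behind each segment was large: the median SE of a log2 fold change was 0.38 for the tested members against 0.16 for all tested genes, and the median biological coefficient of variation was 27.5% for V, 31.5% for J and 15.6% for all tested genes.

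The log2 fold changes of the tested members had a median of 0.17, with 67 of 101 positive (66.3%), beside a median of 0.0084 and 51.8% positive over all tested genes. Over fits that left out 1 library, the member median ran from 0.076 (without Exon2KO 2, 60 of 105 positive) to 0.25 (without WT 2, 67 of 105 positive). Among V segments 36 of 60 were positive with a median of 0.16, which was 0.0087 without WT 2 (32 of 63 positive) and 0.073 without Exon2KO 2, and among J segments 29 of 38 with a median of 0.19. With libraries scaled by their receptor segment counts, 60 of the 101 were positive with a median of 0.064, while all genes had a median of -0.087. The J median fell to 0.031, with 21 of 40 positive, without WT 6, and was 0.42 without WT 2. Genotypes did not overlap for 14 of the 101 members (13.9%), 12 higher and 2 lower in Exon2KO, beside 17.7% of all tested genes (8.35% higher and 9.32% lower). The 2 lower members were Trav16 and Trav5-4, named after their values were seen.

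**Figure D5:**
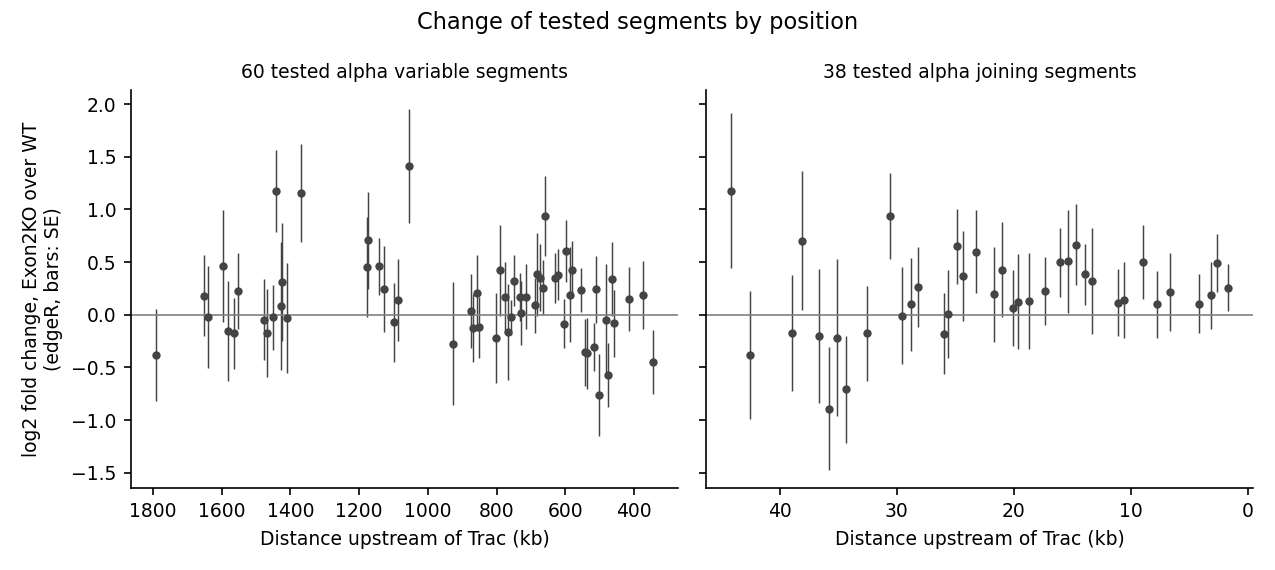
Log2 fold change of Exon2KO over WT (edgeR, bars: SE) of the 60 tested alpha V members (left) and the 38 tested alpha J members (right) against distance upstream of Trac in kb. Most points lie within a few SE of 0, the 3 highest V segments are Trav8d-1, Trav14n-1 and Trav13d-1, and most J points near Trac lie above 0.

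Members with an unadjusted p under 0.05 numbered 5 in the main edgeR fit. Over the alternative fits they numbered from 1 (without Exon2KO 2) to 11 (no filter on low counts, 6 of them higher in Exon2KO). Of the 5 members in the main fit, all with a positive log2 fold change and named after their values were seen, Trav8d-1 had the smallest p. It had 0.858, 1.045 and 0.890 CPM in WT 2, 6 and 20, and 2.77, 2.31 and 1.24 CPM in Exon2KO 2, 6 and 20. All Exon2KO libraries were above all WT libraries, with Exon2KO 20 near them (log2 fold change 1.17, SE 0.39, edgeR adjusted p = 0.208). Trav14n-1 had 0.965, 0.770 and 0.609 CPM in WT 2, 6 and 20, and 1.39, 3.89 and 0.955 CPM in Exon2KO 2, 6 and 20. Its difference leaned on Exon2KO 6, without which the log2 fold change was 0.58, and the groups overlapped (1.42, SE 0.54, edgeR adjusted p = 0.304). Trav14n-1 and Trav14d-1 have identical transcripts, and the table gave 163 counts to the first and 1 to the second. Trav13d-1, Trav15-1-dv6-1 and Traj30 had log2 fold changes of 1.156, 0.94 and 0.94 with adjusted p of 0.338, 0.342 and 0.396, and no overlap between the genotypes. The highest group mean among the 5 was 2.11 CPM, that of Trav8d-1 in Exon2KO.

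Fold changes were also read along the locus. Spearman's rho between distance and log2 fold change was 0.097 over the 60 tested V segments and -0.29 over the 38 tested J segments, as descriptions. Of the J segments in the 2 parts nearest Trac each tested member (11 of 11 and 9 of 9) had a positive log2 fold change, with medians of 0.32 and 0.18. Without WT 6, the library with the lowest J sum, 6 of 11 and 5 of 9 were positive, with medians of 0.091 and 0.059. In the part from Traj40 to Traj32, 1 of 7 was positive, with a median of -0.22, but without WT 2 there were 5 of 8 with a median of 0.14, and without WT 6 the median was -0.59. The far J parts had 1 tested segment between them.

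The delta segments encode the chain used by gamma-delta T cells, and apart from the constant segment none had more than 85 counts over all libraries. Trdc (ENSMUSG00000104876, chr14:54142851-54148868) had 3.59, 5.56 and 3.94 CPM in WT 2, 6 and 20, and 3.55, 6.10 and 5.56 CPM in Exon2KO 2, 6 and 20. The groups overlapped from end to end (4.36 ± 1.048 and 5.07 ± 1.34 CPM, SD, n = 3; log2 fold change 0.22, SE 0.28, edgeR adjusted p = 0.868). That fold change ran from 0.054 to 0.43 over fits that left out 1 library. Per length its level was 1.22 CPM per kb, against 536 CPM per kb for Trac. Trdv1, the only delta V segment that was tested, had 0.798 ± 0.320 and 0.702 ± 0.275 CPM (SD, n = 3; log2 fold change -0.18, SE 0.50, edgeR adjusted p = 0.955). Its sign turned positive without WT 6 or without Exon2KO 2.

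Of the delta members that were not tested, Trdv2-2 had 45 counts over all libraries, Trdv5 23, Trdv4 13 and the joining segment Trdj2 10. Among those below the minimum, Trdj1 had 7 counts, Trdv2-1 had 2 and Trdv3 had none. Trdv5 is the only member on the minus strand. Trdv5 (chr14:54148662-54149294) overlaps only the end of Trdc. Since the strand setting of the counting is not given, reads of that shared end cannot be told apart. The share of transcript stretches found in that gene alone was 93.3% for Trdc and 59.4% for Trdv5. All delta members summed to 5.89 ± 1.204 CPM in WT and 6.63 ± 1.70 CPM in Exon2KO (SD, n = 3; two-sided exact permutation p = 0.7). Of the 11 gamma-delta T cell markers listed, 8 were in the table under those names, none was at 0 in all libraries, and their sum ran from 11.0 to 17.4 CPM in WT and from 14.3 to 17.2 CPM in Exon2KO. Of the 6 tested none was called by edgeR, and with the replicate block 1 was called higher and 1 lower, where 3.93% and 5.79% of all tested genes were. The one higher, 5830411N06Rik, had 0.917 ± 0.706 and 3.49 ± 1.07 CPM (SD, n = 3; log2 fold change 1.93, edgeR adjusted p = 0.114, with the block 0.000776). The one lower, the gamma chain constant segment Tcrg-C4, had 4.09 ± 0.529 and 1.94 ± 0.509 CPM (SD, n = 3; -1.07, edgeR adjusted p = 0.104, with the block 0.019). The 2 not tested were low, Zbtb16 at 0.0647 and 0.0543 CPM and Sox13 at 0.0729 and 0.270 CPM in WT and Exon2KO. Their part in the delta level was not tested, and in bulk RNA fewer cells of a type and less RNA per cell cannot be told apart.

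Segments of the invariant receptors were read for the same reason. The NKT cell receptor pairs Trav11 with Traj18. Trav11 had 4 and Trav11d 6 counts over all libraries, so both were below the minimum, and their transcripts are identical over 342 bases. The third relative, Trav11n, had 29 counts, 16 of them in Exon2KO 6. Traj18 had 2.04, 0.660 and 1.73 CPM in WT 2, 6 and 20, and 2.22, 1.18 and 1.46 CPM in Exon2KO 2, 6 and 20, with WT 6 low and the groups overlapping (log2 fold change 0.13, SE 0.45, edgeR adjusted p = 0.961). The MAIT cell receptor pairs Trav1, the segment farthest from Trac, with Traj33. Trav1 had 1.18 ± 0.443 and 0.909 ± 0.336 CPM (log2 fold change -0.38, which ran from -0.72 to -0.029 over fits that left out 1 library, edgeR adjusted p = 0.847), and Traj33 0.719 ± 0.453 and 0.621 ± 0.617 CPM (-0.22, adjusted p = 0.960) in WT and Exon2KO (SD, n = 3). Both overlapped between genotypes, and the sign for Traj33 turned without WT 2, without Exon2KO 6 or without Exon2KO 20.

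In 10 members more than 50% of the summed CPM came from a single library, and 6 of the 10 would be under the minimum without it. Of these, 8 were alpha V segments, all d or n copies, and the other two were Trdv4 and Trdj2. In Trav6n-7, of 105 counts in all, 79 were from WT 6 and 18 from WT 20, while WT 2 gave 0 and the 3 Exon2KO libraries 1, 5 and 2. Trav14n-2 had 20 of its 21 counts in WT 20, Trav5n-4 21 of 24 in WT 6, and Trav12n-1 13 of 15 in WT 2. Trav12n-3 had 29 of 49 in Exon2KO 20. These libraries are of both genotypes and of all 3 numbers, and none of the 10 members was tested. At the minimum itself, Trav4d-2, Trav9d-4, Trav15n-2, Trdj2, Traj59 and Traj58 were just inside with 10 counts, while Trav4n-3 was just outside with 9, and Trav23, Traj61 and Traj60 with 8.

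Genes that work with the alpha chain were read from the same fit, in lists written with earlier results of these data known. Among receptor partners, the CD3 chains, CD4 and the beta chain constant segments, 8 of 9 were tested and none was called. Beside Trbc2, 2 of them had an unadjusted edgeR p under 0.05, where 12.1% of all tested genes did. Trbc2, a beta chain constant segment, had 641 ± 55.2 and 781 ± 19.3 CPM (SD, n = 3), which gave a log2 difference of 0.29 (SE 0.08, adjusted p = 0.155 with edgeR), and was called higher with the replicate block (adjusted p = 0.0178, edgeR, where 9.72% of all tested genes were called). Ptcra, the surrogate alpha chain of immature thymocytes, had no count. Of 12 recombination genes 9 were tested and none was called; Rag2 was at 0 and Rag1 at 0.0496 and 0.0936 CPM in WT and Exon2KO, where Exon2KO 20, at 0.281 CPM, was the only library above its floor.

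Of 16 factors listed for the enhancer downstream of Trac, all were tested, and 1 was called in each direction, where 0.757% of all tested genes were called higher and 1.58% lower. Tcf7, an HMG-box factor of T cells, had 642 ± 37.2 and 1132 ± 46.2 CPM (SD, n = 3; log2 fold change 0.82, SE 0.08, edgeR adjusted p = 0.00151). Gata3, a zinc-finger factor of T helper cells, had 124 ± 12.2 and 88.8 ± 9.23 CPM (SD, n = 3; -0.48, SE 0.10, edgeR adjusted p = 0.0437). Lef1, Ikzf1 and Bcl11b were called higher in the edgeR fit with the replicate block and not without it, which with Tcf7 made 4 of 16 where 3.93% of all tested genes were called higher. Over the 16 the median was 0.11 on the log2 scale, beside 0.0084 for all tested genes.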

How the data were processed

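The deposited table holds 1 column of whole-number counts per gene and library, raw per the file headers, for 3 WT and 3 Exon2KO libraries. The authors' comparison of the genotypes, as a log2 fold change, p-value and adjusted p-value per gene, was deposited in the same table and is quoted only by name. The build mm10 and the tools HISAT2 2.0.5, StringTie 1.3.3b, featureCounts 1.5.0-p3 and DESeq2 1.16.1 are named in the submitters' processing notes, without their roles. Filters, strand setting and the treatment of reads with several positions are not given in the sources used here. All 202 segments have the same position in GENCODE mouse release 21, whose transcripts gave the sequences.

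Column names give the genotype and a number (2, 6 or 20) that is no replicate number of the titles, so columns were assigned to groups but not to titled samples. The titles call the samples biological replicates. Nothing says what animals stand behind them, so p-values measure the spread between these libraries. Libraries of 1 genotype differed by more than sampling noise (chi-square per degree of freedom 8.87 to 26.4), so all 6 were counted. Libraries of the same number deviated together from their group means (correlations 0.271, 0.369 and 0.494 over 14919 genes for numbers 2, 6 and 20), so the number was taken as pairing them in the fits with a block. Over the 101 tested members alone these correlations were lower, at 0.141, 0.277 and 0.092.

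Exon2KO was tested against WT with edgeR 4.0.16 in R 4.3.3 (filterByExpr, TMM, robust quasi-likelihood test, two-sided, no covariate). Benjamini-Hochberg adjustment covered the 14919 tested genes, with calls under 0.05; the SE is the absolute log2 fold change over the root of the F statistic. Levels are CPM on TMM-scaled library sizes. Summed levels, shares, count-weighted positions and effective numbers were compared by two-sided exact permutation tests over libraries (scipy 1.17.1). Alternatives were RLE, upper-quartile and receptor-count scaling, no filter on low counts, a minimum of 10 counts per library, DESeq2 1.42.0, limma-voom (limma 3.58.1), no robust estimation, a block on the column number, other sets of segments, and leaving out each library. The ratios to Trac, and alternatives for parts of the regions, were added after seeing the data. The V share in the part (1 of 6) nearest Trac was itself no planned test. Of these steps only the edgeR fit was tested on simulated data.

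The members and gene lists were chosen with earlier results of these data known. Named were the constant and delta segments, the 5 V and 5 J segments with the highest mean CPM, called members, the V and J segments with the largest fold changes among those of at least 5 CPM, those of the invariant receptors, those at the minimum, and called genes of the lists. Others are marked as chosen after their values were seen.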

Additional observations from a re-analysis of the deposited data

How the results depend on the processing

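No member was called under any of the 15 alternatives of the fit across all genes (edgeR, DESeq2 or limma-voom, smallest adjusted p 0.0687 to 0.429). In these fits 0.557% (without Exon2KO 2) to 9.72% (replicate block) of all tested genes were called. With the column number as a replicate block in edgeR, the smallest adjusted p was 0.0687. There 9 of 101 members had an unadjusted p under 0.05 (8 of them higher in Exon2KO), beside 21.5% of all tested genes. The replicate block changed no call of a member or of a summed value, with sign-flip tests of 3 pairs that cannot go below 0.25. The planned block on the replicate numbers of the titles could not be fitted, because the columns carry other numbers. The planned FPKM alternatives were not run, since only the count columns were used. Where a value changed sign, the cause was not tested. Trac's level turned to -0.020 as a share of receptor counts, and its fold change to -0.021 with that scaling, as did Traj6's, to -0.0057. The share of V counts in the third nearest Trac differed by 0.21 points without d and n copies.

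Leaving out each library in turn gave differences (Exon2KO minus WT) of -0.0013 to 0.15 for the log2 Trac level, -0.016 to 0.37 for the log2 delta sum, -2.12 to 1.04 points for the share in the third of the V region nearest Trac, -1.25 to 3.91 for J counts and -0.0081 to 1.03 for V counts per 100 Trac counts. Log2 fold changes ran from -0.0054 to 0.15 for Trac, -0.081 to 0.053 for Trav7-4, -0.068 to 0.59 for Trav13-1, -0.12 to 0.38 for Traj6, -0.22 to 0.42 for Traj18, -0.40 to 0.18 for Trdv1 and -1.41 to 0.32 for Traj33. The effective number of V segments kept its direction in each alternative run (-2.19 to -1.18). So did the V share in the part (1 of 6) nearest Trac (-1.82 to -1.13 points), which was no planned test and whose alternatives were added after seeing the data. Because the genotypes did not overlap in either measure, leaving out a library or pairing by number could not turn the direction. Only the alternatives with other sets of segments could have turned it. Single segments had few counts: the median V member had 134 counts and the median J member 116 over all 6 libraries. The part of depth in their spread was not tested.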

Other observations

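Genes without a receptor role in and beside the locus were read from the same fit. Between the first and the last segment lie 25 of them, 13 without a count in any library, and the only one tested, the processed pseudogene Rps19-ps2, had 0.784 ± 0.274 CPM in WT and 1.04 ± 0.413 CPM in Exon2KO (SD, n = 3; edgeR adjusted p = 0.843). The 3 nearest protein-coding genes upstream, the olfactory receptor genes Olfr1510, Olfr1511 and Olfr1512, had no count. Downstream of Trac, Dad1, a subunit of the oligosaccharyltransferase, had 91.3 ± 3.51 and 93.6 ± 4.04 CPM (edgeR adjusted p = 0.928), and Abhd4 had 14.996 ± 2.17 and 10.5 ± 3.46 CPM (log2 fold change -0.51, SE 0.23, edgeR adjusted p = 0.422) in WT and Exon2KO (SD, n = 3). Abhd4 was called lower with the replicate block (adjusted p = 0.0214), which no member was.

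Summed levels ran from 10.2 to 11.2 CPM in WT and from 7.84 to 12.5 CPM in Exon2KO for markers of CD8 T cells, from 29.3 to 31.0 and from 22.4 to 26.4 CPM for B cells, from 16.3 to 35.5 and from 12.8 to 29.0 CPM for myeloid cells, and from 4.12 to 15.9 and from 2.19 to 12.8 CPM for erythroid cells. The NKT list summed to 52.6 to 60.4 and 49.3 to 59.0 CPM, most of it from Cd1d1 (44.2 ± 4.73 and 39.9 ± 0.957 CPM, SD, n = 3), which encodes the molecule that presents lipids to NKT cells and is no marker of them. In that list Klrb1c had 2.85 ± 0.629 and 1.70 ± 0.589 CPM (SD, n = 3), and Zbtb16, the factor that defines NKT cells, averaged 0.0647 and 0.0543 CPM, under the floor of 3 counts. The B cell sums did not overlap between genotypes, and their part in the levels of the segments was not tested.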
